A study of Mus musculus with 2 samples.

Results

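Dividing microglia and macrophages were taken from single-cell RNA profiles of retinal immune cells in a PBS library and a library of the treatment labelled MSC-sEV. Members were chosen by measured UMI counts. A barcode was a member when it held at least 3 UMIs of C1qa, C1qb and C1qc together and at least 1 UMI of at least 2 of the 5 division genes Mki67, Top2a, Ube2c, Birc5 and Cdk1. A UMI marks 1 captured RNA molecule. In the MSC-sEV library 120 of 2323 kept barcodes were members, or 120 of the 723 that met the C1q threshold. In the PBS library 0 of 1347 kept barcodes, and 0 of the 264 that met the C1q threshold, were members. All comparisons of genes were therefore made inside the MSC-sEV library, against the 488 barcodes that met the same C1q threshold and held none of the 5 division genes, called division-negative here.

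Both groups were C57BL/6 mice aged 6 to 8 weeks with an optic nerve injury, sampled 2 weeks later, and each library pooled the retinas of 6 mice. The retinas were digested with papain and CD45-positive cells, the leukocytes, were enriched on magnetic beads. Groups had 1 library each, so mouse-to-mouse variation was not measured and no test between groups or sets was possible. Intervals in the text are 95% intervals and cover counting error only. The values of the 5 division genes and of C1q chose the members, so their levels are descriptions, and so is every ratio between members and division-negative barcodes.

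Microglia are the resident macrophages of the retina, and macrophages that derive from blood monocytes can join them after injury; both make the complement proteins C1qa, C1qb and C1qc. A dividing cell copies its DNA in S phase and separates the copies in mitosis. Genes for DNA replication are switched on by E2F factors at the start of S phase, while many genes for mitosis are switched on later through CCAAT boxes and the CHR, a short promoter element read by the MuvB complex together with B-Myb and FoxM1.

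The promoters of the 5 genes that chose the members are shown for the elements that they carry. The runs are the 250 bases before the RefSeq start of each gene in GRCm38.p6, 5′ to 3′ on the strand of the gene. They lie at chr7:135716380-135716629 for Mki67 and chr11:99024190-99024439 for Top2a. The run of Ube2c lies at chr2:164769679-164769928, that of Birc5 at chr11:117848987-117849236, and that of Cdk1 at chr10:69352913-69353162. Ube2c and Birc5 are on the plus strand and the other genes on the minus strand. Capitals mark a CCAAT box (CCAAT or ATTGG), a CHR (TTTGAA or TTTAAA on either strand, so also TTCAAA) or an E2F site (TTCCCGC or TTGGCGC on either strand).
Mki67: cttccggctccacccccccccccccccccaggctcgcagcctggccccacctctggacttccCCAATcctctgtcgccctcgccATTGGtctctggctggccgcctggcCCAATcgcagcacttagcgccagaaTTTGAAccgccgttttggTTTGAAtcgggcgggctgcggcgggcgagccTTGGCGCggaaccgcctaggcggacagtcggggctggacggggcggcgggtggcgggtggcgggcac
Top2a: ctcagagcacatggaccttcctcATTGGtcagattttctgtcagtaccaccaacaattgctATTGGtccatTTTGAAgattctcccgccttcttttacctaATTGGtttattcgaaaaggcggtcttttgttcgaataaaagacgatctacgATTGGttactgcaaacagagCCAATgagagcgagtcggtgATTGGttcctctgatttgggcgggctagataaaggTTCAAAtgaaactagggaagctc
Ube2c: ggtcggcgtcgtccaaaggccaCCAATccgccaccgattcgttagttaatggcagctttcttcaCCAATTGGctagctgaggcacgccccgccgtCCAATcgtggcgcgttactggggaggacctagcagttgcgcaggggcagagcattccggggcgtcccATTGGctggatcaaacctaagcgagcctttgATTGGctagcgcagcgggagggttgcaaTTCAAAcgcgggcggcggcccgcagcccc
Birc5: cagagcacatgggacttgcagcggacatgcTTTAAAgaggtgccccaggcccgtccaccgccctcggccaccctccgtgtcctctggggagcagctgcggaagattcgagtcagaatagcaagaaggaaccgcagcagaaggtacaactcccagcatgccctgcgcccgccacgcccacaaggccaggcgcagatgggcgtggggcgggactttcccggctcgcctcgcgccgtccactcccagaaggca
Cdk1: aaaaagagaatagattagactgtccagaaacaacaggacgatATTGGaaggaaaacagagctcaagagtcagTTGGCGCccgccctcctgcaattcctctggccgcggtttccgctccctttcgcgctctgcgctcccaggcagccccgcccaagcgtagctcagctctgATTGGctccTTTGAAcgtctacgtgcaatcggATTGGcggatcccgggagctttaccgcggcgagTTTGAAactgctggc
A CHR match stood in all 5 runs, at 116 and 98 bases upstream in Mki67, at 179 and 23 in Top2a, at 29 in Ube2c, at 220 in Birc5 and at 71 and 15 in Cdk1. CCAAT boxes were in 4 of 5 runs, with 3 in Mki67, 6 in Top2a, 6 in Ube2c and 3 in Cdk1. E2F matches were in Mki67, at 67 bases upstream, and in Cdk1, at 178. Over 27025 mouse genes with a promoter in the same table, windows from 250 bases before to 50 bases after the start held a CCAAT box in 37.9%, a CHR in 27.8% and an E2F match in 6.93%. A match describes letters and shows no binding.

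The 2 libraries held 1676 barcodes with 8439740 UMIs (PBS) and 2593 barcodes with 16987131 UMIs (MSC-sEV). Kept barcodes had 500 UMIs and 300 genes or more, with mitochondrial UMIs at 15% or less. They had medians of 2601 and 2920 UMIs. No barcode sequence was shared between the libraries. Although both libraries are labelled as retinal immune cells, barcodes under the C1q threshold with at least 3% of their UMIs in rod photoreceptor markers made up 879 of 1347 kept PBS barcodes and 1153 of 2323 kept MSC-sEV barcodes.

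Members were found in 1 of the 2 libraries. Members were 0 of 264 C1q-positive PBS barcodes, which allows a share of up to 1.14% by the limit of 3 counts (Clopper-Pearson 0 to 1.39%). In the MSC-sEV library they were 120 of 723, or 16.6% (Clopper-Pearson 14.0 to 19.5%). The 5 division genes together had 16 UMIs over all PBS barcodes and 3335 over all MSC-sEV barcodes. Depth differed, with a median of 7153.5 UMIs per C1q-positive barcode in PBS and 9696 in MSC-sEV. After each barcode was thinned to 2000 UMIs, which left out 54 PBS and 107 MSC-sEV barcodes that were shallower, and the rule applied again, members were 0 of 137 and 46 of 461 (9.98%, 7.40 to 13.1%) of those still C1q-positive. With 1 library per group, treatment and library cannot be told apart.

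Single division genes were also seen in barcodes of other kinds. At least 1 of the 5 genes was seen in 9 of 264 C1q-positive PBS barcodes (3.41%, 1.57 to 6.37%) and in 235 of 723 MSC-sEV barcodes (32.5%, 29.1 to 36.1%). Each of the 9 PBS barcodes held 1 UMI, of Cdk1 in 5, Ube2c in 3 and Mki67 in 1, and their median depth was 44600 UMIs. Among rod barcodes of the MSC-sEV library, cells that have left the cell cycle, 36 of 1153 (3.12%) held 1 of the genes and 0 held a pair, at a median of 2463 UMIs. Rod barcodes of the PBS library held 1 of the genes in 3 of 879 (0.341%), at a median of 2316 UMIs.

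Few members were at the C1q threshold and many at that of the division genes. 45 of 120 held exactly 2 of the 5 division genes, and 115 further C1q-positive barcodes of the same library held 1. 5 members were at exactly 3 C1q UMIs. 4 kept barcodes held at least 2 division genes but were under the C1q threshold, 1 of them at 2 C1q UMIs and 2 of them at 0.

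The 5 division genes were unevenly spread over the members. Mki67, a protein that coats mitotic chromosomes, had 829 UMIs and was seen in 89 members (74.2%), with a median of 2 UMIs and a highest value of 66. Top2a, which untangles DNA, had 1032 UMIs in 82 members (68.3%), with a median of 1.5 and a highest value of 89. Ube2c, the ubiquitin carrier of the anaphase-promoting complex, had 481 UMIs in 83 members (69.2%). Most members thus held few UMIs of each gene while single members held many. Birc5, a subunit of the chromosomal passenger complex, had 416 UMIs in 73 members (60.8%), and Cdk1, the kinase that drives entry into mitosis, had 271 UMIs in 65 (54.2%). On the CPM scale, UMIs summed over a set and scaled to the same total in every set, members stood at 403 for Top2a (Poisson 378 to 428), 323 for Mki67 (302 to 346), 188 for Ube2c (171 to 205), 162 for Birc5 (147 to 179) and 106 for Cdk1 (93.5 to 119).

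Depth and other cell types moved with membership. The median depth was 15059.5 UMIs in members (1454 to 111151) and 6165.5 in division-negative barcodes. Rod markers took 0.161% of the summed UMIs of members and 1.80% of those of division-negative barcodes, while the median mitochondrial share was 2.89% and 2.85%. At least 3 markers of T or innate lymphoid cells were held by 17 of 120 members. Cd3e, which belongs to the T cell receptor complex, was seen in 76.5% of the 17 members, and their 10 lymphoid markers together stood at 2286 CPM (232 to 7463 over the 17 barcodes). The median depth of the 17 was 31131 UMIs. Whether they are single cells or 2 cells in 1 droplet was not tested.

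The label was checked against C1q itself. C1q transcripts took a median of 1.25% of UMIs in members and 0.588% in division-negative barcodes, and 19 of 120 members had under 0.3%. A second comparison, set after the data were seen, was therefore limited to C1q-rich barcodes, those with C1q at 0.3% of UMIs or more, under 3 lymphoid markers and rod markers at 2% of UMIs or less. It kept 92 members and 268 division-negative barcodes. The median C1q share was then 1.45% and 1.52% and rod markers took 0.179% and 0.188% of summed UMIs, while depth still differed at 14892 against 5348 UMIs. The median rod share over single barcodes also still differed, at 0.0684% in members and 0.119% in division-negative barcodes. In this comparison the 10 lymphoid markers stood at 25.4 and 26.6 CPM and granulocyte markers at 207 and 464 CPM. The share of C1q-rich barcodes that were members was 20.6% (92 of 446, 17.0 to 24.7%) in the MSC-sEV library. In the PBS library it was 0 of 81, which allows up to 3.70% by the limit of 3 counts (Clopper-Pearson 0 to 4.45%). Thinned to 2000 UMIs, these shares were 11.1% (42 of 377, 8.15 to 14.8%) and 0 of 58. The latter allows up to 5.17% by the limit of 3 counts (Clopper-Pearson 0 to 6.16%). The C1q-rich division-negative barcodes also differed between libraries, with a median over barcodes of 13505 CPM of microglia markers and 662 CPM of monocyte or macrophage markers in PBS, against 6418 and 2397 CPM in MSC-sEV. Over all 255 division-negative PBS barcodes the monocyte markers Ly6c2, Chil3 and Clec4n were at 0 UMIs. The part of this in the difference between libraries was not tested.

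**Figure D1:**
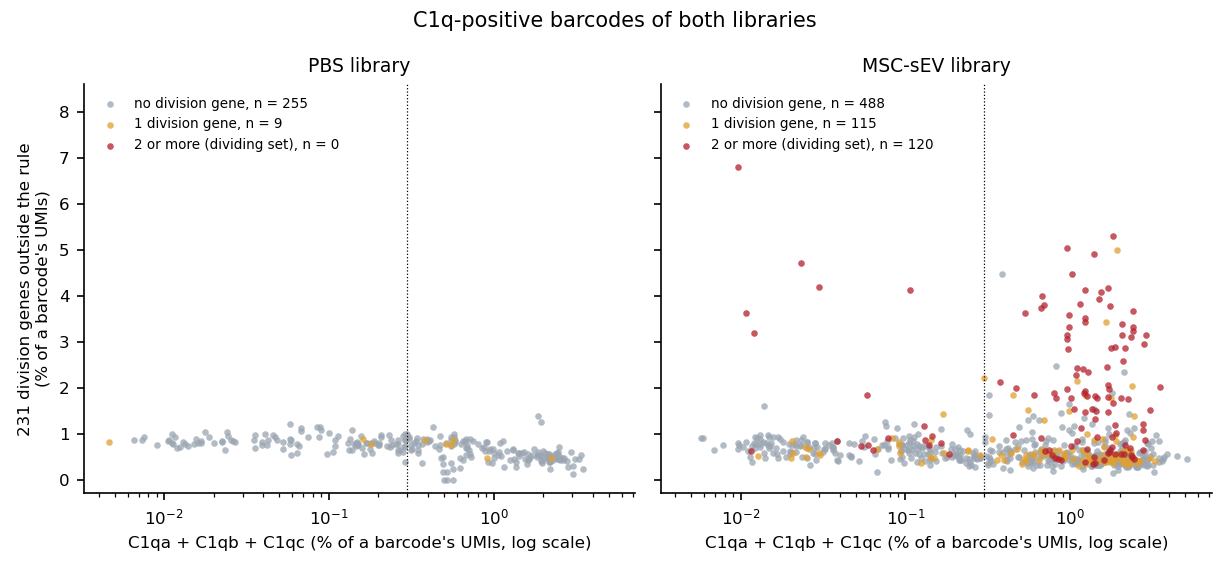
Each point is 1 C1q-positive barcode, with C1qa, C1qb and C1qc as a percentage of its UMIs on a log axis and 231 division genes outside the choosing rule as a percentage of its UMIs on the vertical axis, coloured by membership, for both libraries; the dotted line is the C1q-rich cut of 0.3%. Members, which exist in the MSC-sEV library, reached 6.80% of UMIs in these genes, and division-negative PBS barcodes reached at most 1.39%.

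Further division genes marked many of the same barcodes. Lists of 231 division genes without the 5 choosing genes took a median of 1.78% of UMIs in members (0.333 to 6.80%), 0.548% in division-negative barcodes and 0.724% in those of the PBS library. By the number of the 5 choosing genes seen, the median was 0.538% at 1 gene, 0.743% at 2, 1.76% at 3, 1.82% at 4 and 3.52% at all 5 (1.81 to 6.80%). Barcodes with 1 choosing gene thus lay at the level of those with none, and members with 2 lay slightly above. Rod barcodes had a median of 0.709% in the MSC-sEV library and 0.791% in the PBS library. Members with 2 choosing genes were thus near the level of rod barcodes. A share over 1% was found in 77 of 120 members, 13 of 115 barcodes with 1 choosing gene, 32 of 488 with none and 14 of 255 PBS barcodes with none. A share over 1.5% was found in 67 of 120 members, 9 of 115 barcodes with 1 choosing gene, 8 of 488 with none and 0 of the PBS barcodes with none. Depth did not follow the same order, with median UMIs of 6165.5, 17160, 15073, 10460, 15736 and 31131 from 0 to 5 genes.

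**Figure D2:**
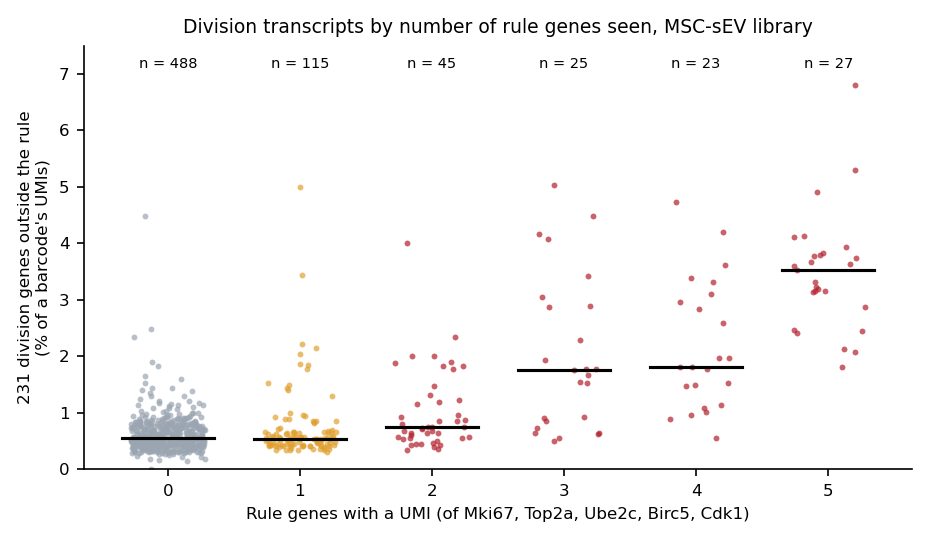
Each point is 1 C1q-positive barcode of the MSC-sEV library, placed by how many of the 5 choosing genes it held (0 to 5) and by the percentage of its UMIs in 231 other division genes; black bars are medians. The medians are 0.548, 0.538, 0.743, 1.76, 1.82 and 3.52%, and single barcodes with 0 or 1 choosing gene reach the range of members.

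Genes were compared by the ratio of CPM, members over division-negative barcodes, over the 12320 genes with at least 20 UMIs in both sets together, and over 10096 in the C1q-rich comparison. At least 2-fold higher in members were 646 genes (5.24%) and at least 2-fold lower 2564 (20.8%), around a median log2 ratio of −0.12. In the C1q-rich comparison 519 genes (5.14%) were at least 2-fold higher and 330 (3.27%) at least 2-fold lower, around a median of 0.01. Since division genes chose the members, the high share of other division genes is read against these percentages as a description alone. Of the 226 measured division genes outside the choosing rule, 179 were at least 2-fold higher and 2 at least 2-fold lower, with a median log2 ratio of 2.76. In the C1q-rich comparison 178 of 221 were at least 2-fold higher and 0 lower, with a median of 2.80.

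The genes lowest in members in the first comparison were retinal. Clu, a chaperone made by glia and other retinal cells, stood at 25.7 CPM in members and 764 in division-negative barcodes, 29.7-fold lower (23.3 to 38.4). Rbp3, a retinoid carrier made by photoreceptors, was 12.4-fold lower, Cnga1, a channel subunit of rods, 12.9-fold, and Slc24a1, the rod ion exchanger, 13.5-fold. In the C1q-rich comparison, where rod marker shares of summed UMIs were close, Slc24a1, Cpe and Gngt1 turned to log2 ratios of 0.054, 0.14 and 0.29 and Rbp3 was at −0.027. Clu was still 5.87-fold lower there (4.06 to 8.76) and Mgarp, another of the lowest genes, 2.00-fold (1.44 to 2.84). All further values are from the C1q-rich comparison unless the first is named.

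Replication genes were higher as a group. All 47 measured genes for replication licensing and DNA synthesis were higher in members, 41 of them at least 2-fold, with a median log2 ratio of 2.41. That median was 0.65 without barcodes with 2 markers of another immune class, which left 41 members, 1.30 after thinning and 1.76 as a mean of CPM per barcode. Pcna, the sliding clamp of DNA polymerases, had 441 UMIs in members and 197 in division-negative barcodes, or 238 and 75.8 CPM, 3.15-fold higher (2.65 to 3.74), and was seen in 66.3% and 41.4% of barcodes. After thinning to 2000 UMIs Pcna was seen in 29.1% of members and 15.7% of division-negative barcodes, and in 15.6% of rod barcodes. The division-negative share was thus close to that of rod barcodes, and the source of these UMIs was not tested. Mcm10, a factor of replication start, had 34 UMIs in members and 1 in division-negative barcodes. Atad2, a chromatin ATPase, was 6.94-fold higher (5.10 to 9.61). Slbp, which binds the stem loop of histone mRNAs, was 1.78-fold higher (1.43 to 2.22). Over the 92 single members Pcna ranged from 0 in 31 barcodes through a median of 97.1 to 2391 CPM.

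Outside the lists, Pclaf had the highest ratio by the naming rule. Pclaf, a PCNA-binding protein (chr9:65890237-65903266, plus strand, mm10), had 495 UMIs in members and 10 in division-negative barcodes, or 268 and 3.85 CPM, 69.6-fold higher (37.5 to 146), a log2 ratio of 6.12 that was 4.53 as a mean of CPM per barcode. It was seen in 62.0% of members and 3.36% of division-negative barcodes. After thinning to 2000 UMIs it was seen in 34.9% of members, 0.490% of division-negative barcodes and 0.277% of rod barcodes. Gmnn, which stops origins from firing again, was 6.52-fold higher (4.31 to 10.2) and Dbf4, the activator of the replication kinase Cdc7, 5.75-fold (3.58 to 9.63). Cdkn3, a phosphatase that acts on Cdk kinases, was 12.5-fold higher (6.00 to 30.0), and Hjurp, which loads the centromeric histone, 3.91-fold.

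Nucleotide synthesis genes divided into a strongly and a weakly higher set. Of 21 measured, 20 were higher and 10 at least 2-fold, with a median log2 ratio of 0.88. Rrm2, the S-phase subunit of ribonucleotide reductase, had 154 UMIs in members and 3 in division-negative barcodes, or 83.3 and 1.15 CPM, a ratio of 72.1 (24.2 to 354) that was 18.1 as a mean of CPM per barcode. Tk1, the cytosolic thymidine kinase, had 112 and 4 UMIs, 39.3-fold higher (14.9 to 147). Nme1 was 1.31-fold and Paics, a purine synthesis enzyme, 1.43-fold higher.

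Replication-dependent histones had large ratios that rested on part of the members. All 19 measured were higher, 17 at least 2-fold, with a median log2 ratio of 3.01. Hist1h1b, a linker histone, had 626 UMIs in members and 9 in division-negative barcodes, or 339 and 3.46 CPM, 97.7-fold higher (51.2 to 215). It was at 0 in 57 of 92 members and reached 2702 CPM in another, and its log2 ratio of 6.61 was 4.46 as a mean of CPM per barcode. Hist1h2ae stood at 237 and 7.70 CPM (30.8-fold, 19.7 to 51.0) and Hist1h3c at 172 and 0 UMIs. Hist1h2bc, a histone gene that was 2.18-fold lower in the first comparison, was 1.75-fold higher (1.48 to 2.07) here. Reads of near-identical histone genes are hard to assign to 1 copy, so single histone values are uncertain.

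Genes of mitosis had the highest medians, but the rule bears on this order. Mki67, Ube2c, Birc5 and Cdk1 act in mitosis, and division-negative barcodes were chosen to lack them. At least 10 of the 49 replication genes were seen in 72 of all 488 division-negative barcodes and in 68 of all 120 members. Of 24 measured cyclins, mitotic kinases and regulators 23 were higher and 22 at least 2-fold, with a median log2 ratio of 3.91. Ccnb1, the cyclin of Cdk1, had 99 UMIs in members and 0 in division-negative barcodes, and Ccna2, the cyclin of S phase and early mitosis, stood at 88.7 and 2.69 CPM (32.9-fold, 15.6 to 83.2). Pbk, a mitotic kinase, had 129 and 1 UMIs. Cks1b and Cks2, which bind Cdk kinases, were 8.43-fold (5.93 to 12.3) and 6.76-fold (4.60 to 10.2) higher. Both Cks genes thus had lower ratios than the cyclins they act with. Cdk2 was the 1 gene of the list that was not higher.

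Centromere, kinetochore and spindle genes were higher almost without exception. All 26 measured centromere and kinetochore genes were higher, 25 at least 2-fold, with a median log2 ratio of 4.18. Cenpf, of the outer kinetochore, had 351 and 5 UMIs (98.6-fold, 41.9 to 306), and Cenpe, a kinetochore motor, 299 and 3 UMIs (140-fold, 47.5 to 683). All 37 spindle, mitotic kinesin and cytokinesis genes were higher, 34 at least 2-fold, with a median of 4.47. Prc1, which bundles the central spindle, had 242 and 1 UMIs, Nusap1 219 and 1, and Kif23, a motor of cytokinesis, 121 and 0. Transcripts that resting cells also carry had smaller ratios in the same list. Tuba1b, an alpha tubulin, stood at 1146 and 586 CPM (1.96-fold, 1.83 to 2.09) and Tubb5, a beta tubulin, at 897 and 355 CPM (2.53-fold, 2.33 to 2.74). Stmn1, which takes microtubules apart, stood at 490 and 40.8 CPM (12-fold, 9.82 to 14.8) and was seen in 87.0% of members and 19.4% of division-negative barcodes. As means of CPM per barcode the ratios were smaller, at 34.0 for Cenpf, 52.8 for Cenpe and 6.86 for Stmn1.

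Anaphase and chromatin genes were lower in the order. Of 12 anaphase and mitotic exit genes 11 were higher and 6 at least 2-fold, with a median log2 ratio of 0.85. Cdc20, the activator of the anaphase-promoting complex, had 86 and 1 UMIs, while Cdc26, one of its constant subunits, was at 0.947 of the division-negative level (0.716 to 1.25). All 21 condensin and mitotic chromatin genes were higher, 17 at least 2-fold, with a median of 2.31. H2afz, a replacement histone, stood at 1046 and 332 CPM (3.15-fold, 2.90 to 3.41), and its median over single barcodes was 1092 and 213 CPM. Hmgb2, a chromatin protein, stood at 695 and 114 CPM (6.10-fold, 5.37 to 6.95), and its related gene Hmgb1 at 901 and 451 CPM (2.00-fold, 1.85 to 2.15). Over 13 settings the lowest medians were 2.35 for spindle genes and 3.17 for kinetochore genes, both after thinning, and 1.87 for chromatin genes, 2.39 for histones and 0.65 for nucleotide synthesis, each without barcodes with 2 markers of another immune class.

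**Figure D3:**
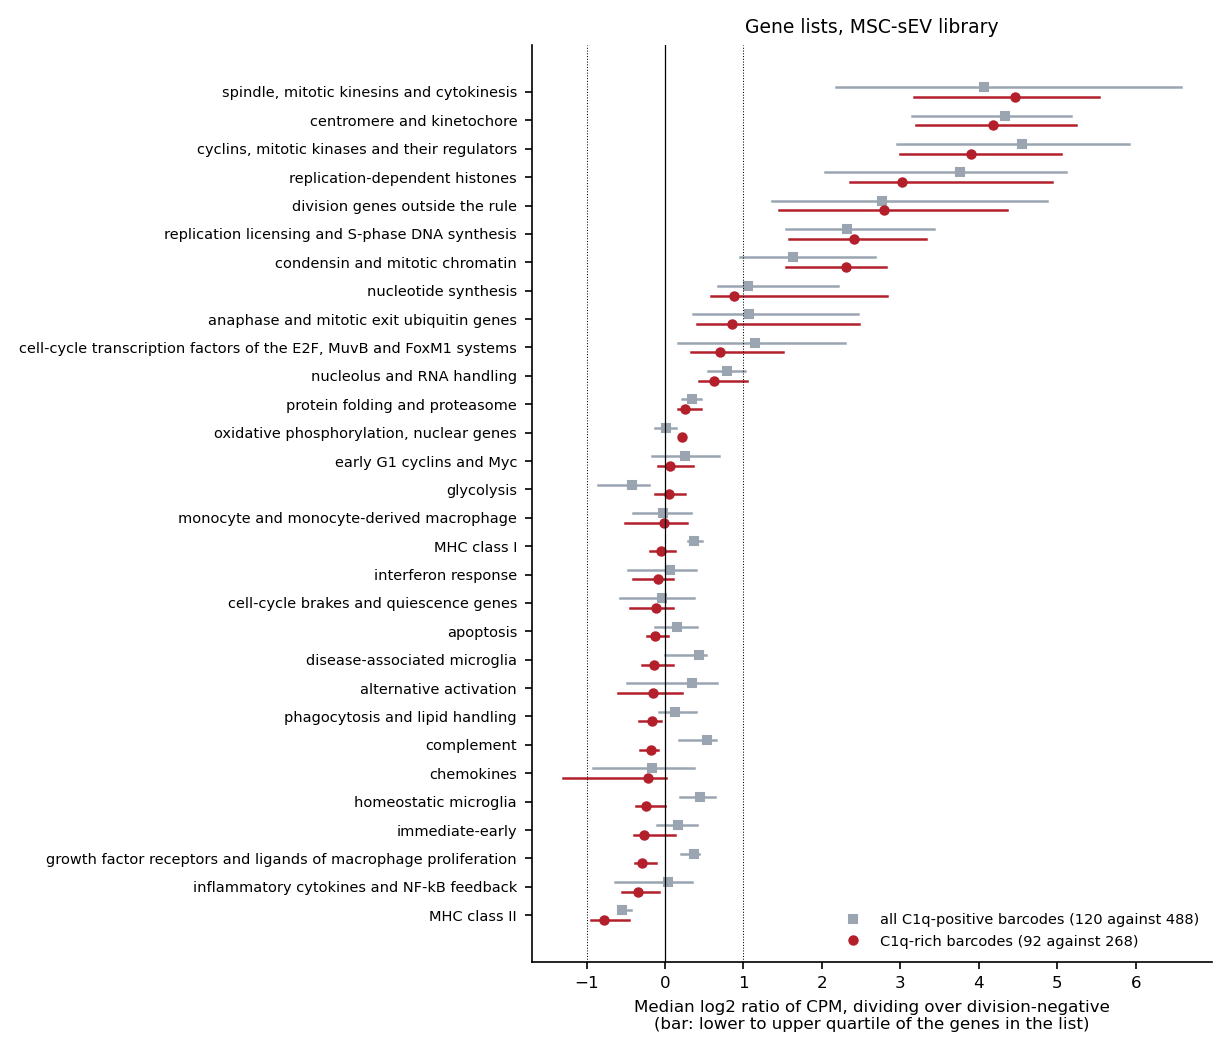
Median log2 ratio of CPM, members over division-negative barcodes of the MSC-sEV library, for 29 gene lists and for all division genes outside the choosing rule; points are medians in both comparisons and bars run from the lower to the upper quartile of the genes in a list. In the C1q-rich comparison the division lists lie between 0.70 and 4.47, and MHC class II is the lowest list at −0.78.

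Transcription factors of the cell cycle had low counts and mixed ratios. Of 14 measured genes of the E2F, MuvB and FoxM1 systems 13 were higher and 6 at least 2-fold, with a median log2 ratio of 0.70. E2f8, a late E2F repressor, had 88 UMIs in members and 6 in division-negative barcodes (20.6-fold, 9.10 to 57.7, and 4.44-fold as a mean of CPM per barcode), and Foxm1, the factor of the mitotic genes, 37 and 1. E2f1 had 33 and 17 UMIs (2.73-fold) and E2f7 30 and 0. E2f4, a constant E2F, was at 1.12-fold (0.777 to 1.60) and Rb1, the retinoblastoma protein that holds E2F in check, at 0.778 of the division-negative level (0.553 to 1.09). The median of this list turned negative in 2 settings, without barcodes with 2 markers of another immune class (−0.20, and −0.35 in the first comparison) and after thinning (−0.85 and −0.99).

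Cell-cycle brakes had no shared direction. Over all measured genes 48.5% were lower, 5.14% at least 2-fold higher and 3.27% at least 2-fold lower. Of 19 brakes measured, 7 were higher and 12 lower, with 2 at least 2-fold higher and 1 at least 2-fold lower. The pair that was higher, named after its values were seen, was Cdkn2c (62 and 24 UMIs, 3.63-fold, 2.23 to 6.08) and Cdkn2d (141 and 56 UMIs, 3.54-fold, 2.58 to 4.91), inhibitors of Cdk4 and Cdk6. Btg2, an antiproliferative gene, stood at 607 and 745 CPM, and Tob1, of the same family, at 13 and 40 UMIs (2.19-fold lower). Of 7 early G1 genes, 4 were higher and 3 lower. Cdk4 was 1.40-fold higher (1.13 to 1.72) and Ccnd3 1.57-fold (1.16 to 2.14), Ccnd1 was at 1.04-fold (0.839 to 1.29), and Ccnd2, another D-type cyclin, had 17 and 104 UMIs, 4.35-fold lower (2.59 to 7.76). The D-type cyclins, partners of Cdk4, thus differed among themselves.

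Promoter elements were also counted by list. Among C1q-rich measured genes with a promoter in the table, 7985 of 10096, the window held a CCAAT box in 39.2%, a CHR in 19.0% and an E2F match in 13%. Replication genes (36 of 49 matched) held a CHR in 19.4% and an E2F match in 55.6%. Spindle genes (34 of 38 matched) held a CHR in 67.6% and an E2F match in 8.82%. Cyclin and kinase genes (19 of 25 matched) held a CCAAT box in 84.2% and a CHR in 52.6%, and kinetochore genes (22 of 27 matched) 77.3% and 59.1%. The lists were put together by function and not by promoter. These shares are counts over few genes and were not tested.

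Members also varied in the balance of replication and mitosis genes. For each member the UMIs of 49 replication genes and of 102 mitosis genes, without the 5 choosing genes, were each divided by their mean over members. By this scale 51 of 120 leaned to replication and 69 to mitosis. Dividing by the means sets the centre, so the split ranks members against each other and does not measure which of the programmes prevails. It is a range, since 35 of 120 were within 0.5 log2 units of equality and 118 held UMIs of both lists. Median depth was 16016 and 14225 UMIs. Among C1q-rich members, 33 leaned to replication and 59 to mitosis.

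Genes outside both lists were then compared between these 33 and 59 barcodes. Rrm2 stood at 174 and 25.6 CPM (6.81-fold, 4.52 to 10.6), Pclaf at 468 and 141 CPM (3.31-fold, 2.73 to 4.02) and Hist1h1b at 602 and 172 CPM (3.49-fold, 2.94 to 4.16). Each was higher on the replication side, as were E2f1 with 30 and 3 UMIs and E2f8 (5.74-fold, 3.41 to 10.1). As means of CPM per barcode the ratios were 3.40 for Rrm2, 1.96 for Pclaf, 2.74 for Hist1h1b and 5.45 for E2f8. Without the top barcode of each side Hist1h1b was at 5.38 and E2f8 at 18.5. Cdkn3 was higher on the mitosis side, with 4 and 67 UMIs. Among the choosing genes Top2a stood at 608 and 286 CPM, 2.13-fold higher on the replication side (1.84 to 2.46), and Ube2c at 64.2 and 286 CPM, 4.46-fold higher on the mitosis side (3.26 to 6.21). The intervals of Mki67 (1.17, 0.996 to 1.38), Birc5 (0.825, 0.638 to 1.06) and Cdk1 (1.32, 0.987 to 1.78) included equality. The replication side also held more MHC class II UMIs (1.56-fold, 1.48 to 1.64), and Cd74, the class II chaperone, stood at 4021 and 2600 CPM. Without the top barcode of each side these ratios were 1.09 for MHC class II and 1.24 for Cd74. Alternative activation genes were 2.20-fold higher on the replication side and 1.45-fold without the top barcodes.

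Members held markers of microglia, of monocyte-derived cells, or of both. The summed UMIs of the microglia markers exceeded those of the monocyte or macrophage markers in 69 of 92 C1q-rich members (75%, 64.9 to 83.4%) and in 194 of 268 division-negative barcodes (72.4%, 66.6 to 77.7%). At least 5 markers of both classes were held by 26 of the 92, of microglia alone by 52, of monocytes alone by 4 and of neither by 10. Members were 69 of 318 C1q-rich barcodes on the microglia side (21.7%, 17.3 to 26.6%) and 22 of 120 on the monocyte side (18.3%, 11.9 to 26.4%). The median depth was 8034.5 UMIs on the first side and 18554 on the second. Thinned to 2000 UMIs, these shares were 29 of 260 (11.2%, 7.60 to 15.6%) and 13 of 113 (11.5%, 6.27 to 18.9%). Barcodes that met the rule were thus found on both sides at shares whose intervals overlapped. In the 7 C1q-rich members with the highest monocyte marker CPM (10738 to 91689), mitosis genes stood at 913, 1531, 1717, 1904, 2257, 2495 and 4704 CPM. Over all C1q-positive barcodes of the library, these genes stood at 2239 CPM with no choosing gene and 2562 with 2. Whether the 7 were dividing was not tested.

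Homeostatic microglia genes depended on which barcodes were compared. In the first comparison 17 of 18 were higher in members, with a median log2 ratio of 0.45, beside 43.0% of all genes. In the C1q-rich comparison 5 were higher and 13 lower, with a median of −0.24, beside 48.5% of all genes lower, and none passed 2-fold in either direction. Cx3cr1, the fractalkine receptor, stood at 1120 and 1335 CPM. Over single barcodes its medians were 1062 and 982 CPM, so sums and medians differed in order. Gpr34, a lysophospholipid receptor, was 1.58-fold lower (1.36 to 1.83) and P2ry13, a nucleotide receptor, 1.65-fold lower (1.25 to 2.19). P2ry12, another nucleotide receptor, was seen in 36.0% of members, 34.8% of division-negative barcodes and 0.830% of rod barcodes after thinning.

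Receptors that drive macrophage growth differed by less than 2-fold in the C1q-rich comparison, and their direction depended on the comparison. Of 17 measured growth factor receptors and ligands, 3 were higher and 14 lower, none by 2-fold, with a median log2 ratio of −0.30. Beside this, 48.5% of all genes were lower. In the first comparison 15 of 17 were higher, beside 43.0% of all genes, with a median of 0.37, and 1 was at least 2-fold lower. Csf1r, the receptor for CSF1 and IL-34 on which microglia depend, stood at 1610 and 1764 CPM (0.913, 0.871 to 0.956) after 1299 and 865 CPM in the first comparison.

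Some monocyte and alternative activation genes, among them Chil3, Ear2 and Retnla, rested on few barcodes. Of 19 monocyte genes 9 were higher and 10 lower, with a median log2 ratio of −0.02 that turned positive under another scaling. Beside this, 48.5% of all genes were lower. Lyz2, lysozyme, stood at 2947 and 2239 CPM (1.32-fold, 1.27 to 1.37), but 1 barcode held 30.7% of the UMIs in members, and the ratio was 1.04 without the top barcode of each set. Ly6c2, a marker of inflammatory monocytes, had 34 and 215 UMIs (4.5-fold lower, 3.12 to 6.67) and was seen in 7.61% and 7.46% of barcodes. In division-negative barcodes 45.6% of its UMIs were in 1 barcode, and it was 3.54-fold lower without the top barcode of each set. Chil3, a chitinase-like protein, was 1.89-fold higher in members, but 1 barcode held 88.3% of the UMIs in members, and without the top barcodes it was 2.82-fold lower. Ear2, an eosinophil-type ribonuclease, had 95.2% of the UMIs in members in 1 barcode.

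Arg1, the arginase of alternative activation, was seen in most members. It stood at 3336 and 2602 CPM (1.28-fold, 1.24 to 1.33) and was seen in 89.1% of members and 72.8% of division-negative barcodes. After thinning the shares were 72.1% and 67.7%, and 6.64% in rod barcodes. Retnla, a secreted protein of alternative activation (chr16:48842551-48844461, plus strand), had 563 and 4112 UMIs, or 304 and 1582 CPM, 5.2-fold lower (4.76 to 5.69). It was seen in 21.7% and 20.9% of barcodes, and 1 barcode held 45.5% of the UMIs in members and another 53.9% of those in division-negative barcodes. Its log2 ratio of −2.38 ranged from −3.94 after thinning to −0.65 without barcodes with 2 markers of another immune class. Mrc1, the mannose receptor, was 1.89-fold lower (1.61 to 2.23), a log2 ratio that went from −0.92 to −3.83 after thinning. For log2 ratios, thinning was followed by a new choice of barcodes. That left 42 members at 2000 UMIs each, so such values are limited by few UMIs. Thinned shares of barcodes keep the sets chosen at full depth, and for Mrc1 they were 8.14% of members and 16.2% of division-negative barcodes. The list of 14 had 6 higher and 8 lower genes, beside 48.5% of all genes lower.

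MHC class II was the list with the lowest median. All 9 measured genes were lower in C1q-rich members, beside 48.5% of all genes, with a median log2 ratio of −0.78. The 1 gene past 2-fold was H2-DMb2, with 21 and 70 UMIs (2.37-fold lower, 1.44 to 4.07). H2-Aa stood at 979 and 1890 CPM (1.93-fold lower, 1.83 to 2.04), H2-Ab1 at 1028 and 1765 CPM (1.72-fold, 1.63 to 1.81) and H2-Eb1 at 559 and 1115 CPM (2.00-fold, 1.86 to 2.14). These are the chains that present peptides to CD4 T cells. The differences were smaller when each barcode had equal weight, with ratios of 0.714, 0.726 and 0.703 for H2-Aa, H2-Ab1 and H2-Eb1, and the share of barcodes with H2-Aa after thinning was 41.9% and 47.1%, beside 8.71% in rod barcodes. The median of the list was between −0.88 and −0.45 over 13 settings of the C1q-rich comparison. In the first comparison 7 of 9 were lower, beside 57.0% of all genes, but the median turned to 0.96 without barcodes with 2 markers of another immune class. MHC class I genes were 7 higher and 8 lower, and B2m, its light chain, stood at 4479 and 5148 CPM.

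**Figure D4:**
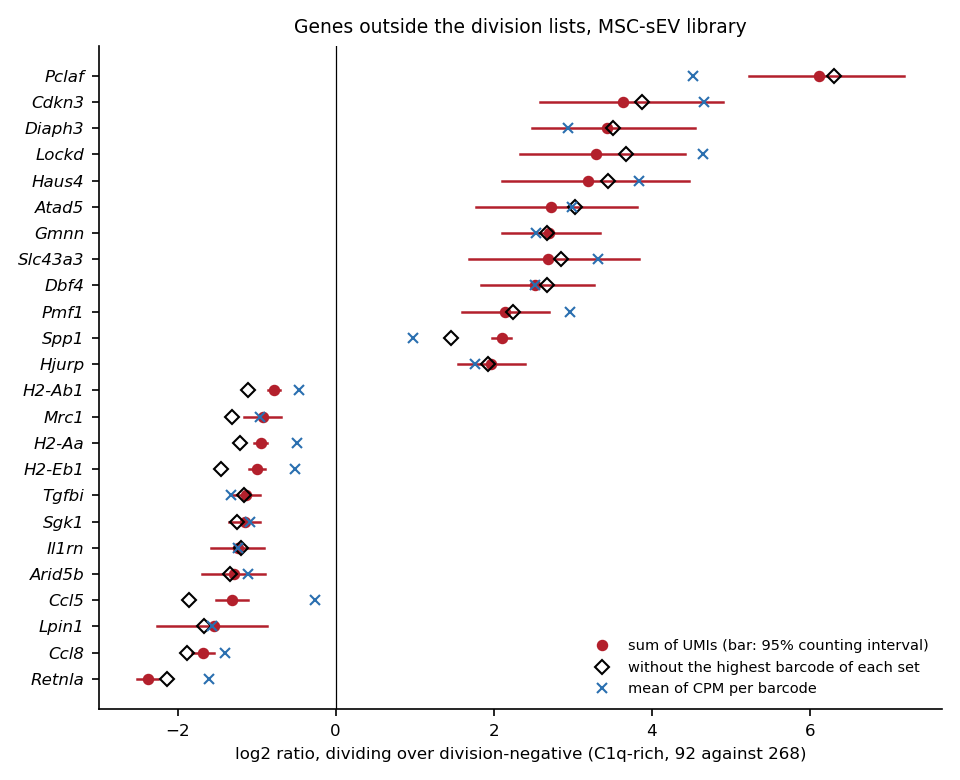
Log2 ratio of CPM in the C1q-rich comparison for 24 named genes outside the division lists, by summed UMIs with the 95% interval, without the top barcode of each set, and as a mean of CPM per barcode. Pclaf, Cdkn3 and Gmnn keep high ratios under all 3, whereas Spp1 is 4.29-fold higher by sums and 1.96-fold by means.

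Inflammatory and interferon genes were mostly at or below the division-negative level. Over all genes 48.5% were lower and 3.27% at least 2-fold lower. Of 24 interferon response genes 8 were higher and 16 lower, with Cxcl10, Ifit1, Ifit2 (2.15-fold) and Ifi44 (3.20-fold) at least 2-fold lower. Cxcl10, a chemokine for T cells, had 23 and 232 UMIs (7.18-fold lower, 4.67 to 11.5) in 7.61% and 4.85% of barcodes, and Ifit1, an RNA-binding interferon effector, 26 and 118 UMIs (3.23-fold lower, 2.10 to 5.15). Of the Cxcl10 UMIs 1 barcode held 10 of the 23 in members and another 79 of the 232 in division-negative barcodes. Ifi27l2a was higher at 1790 and 1285 CPM (1.39-fold, 1.33 to 1.46). Of 13 chemokines 4 were higher and 9 lower, and Cxcl10, Cxcl9 (2.70-fold), Ccl5 and Ccl8 were at least 2-fold lower. Ccl8 stood at 263 and 842 CPM (3.20-fold lower, 2.90 to 3.54), a log2 ratio that went from −1.68 to −6.07 after thinning. The last value is from 42 members chosen again at 2000 UMIs each and is limited by few UMIs. In the sets chosen at full depth, Ccl8 was seen after thinning in 10.5% of members and 14.2% of division-negative barcodes. Ccl5 was 2.47-fold lower by sums but at 0.832 as a mean of CPM per barcode. Il1b, the inflammasome cytokine, stood at 429 and 657 CPM (1.53-fold lower, 1.40 to 1.67) and Il1rn, its receptor antagonist, was 2.35-fold lower.

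Genes of disease-associated microglia, complement and phagocytosis stayed within 2-fold in the C1q-rich comparison with 1 exception. Of 22 disease-associated genes 6 were higher and 16 lower, with a median log2 ratio of −0.14. Apoe, the lipid carrier, stood at 6061 and 9219 CPM (1.52-fold lower, 1.49 to 1.56). Spp1, osteopontin, stood at 1142 and 266 CPM (4.29-fold higher, 3.93 to 4.68), but 1 barcode held 51.8% of the UMIs in members, and the log2 ratio turned to −1.90, −3.22 and −2.69 in 3 other settings. Spp1 therefore had no direction that held over barcodes and settings. Of 13 complement genes 12 were lower, with C1qa at 5525 and 6501 CPM (1.18-fold lower, 1.15 to 1.21), and C1q chose both sets. Of 19 phagocytosis and lipid genes 18 were lower, none by 2-fold. Beside these counts 48.5% of all genes were lower. The first comparison had the opposite directions. There 16 of 22 disease-associated genes were higher (median log2 ratio 0.44), 12 of 14 complement genes (0.53) and 11 of 19 phagocytosis and lipid genes (0.13). Beside these, 43.0% of all genes were higher.

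Nucleolar, protein folding and oxidative phosphorylation genes were mostly higher in C1q-rich members, and glycolysis genes were not. All 18 nucleolus and RNA handling genes were higher, 5 at least 2-fold, with a median log2 ratio of 0.62. Nop58, of the ribosomal RNA processing complex, was 2.55-fold higher (1.95 to 3.36), Lsm2, of an RNA-binding ring, 2.87-fold (2.14 to 3.89) and Ncl, nucleolin, 1.22-fold. All 20 protein folding and proteasome genes were higher, beside 51.5% of all genes, with a median of 0.26 and none at 2-fold. Hsp90ab1, a constant chaperone, stood at 1388 and 1090 CPM. Of 25 nuclear genes of oxidative phosphorylation 24 were higher with a median of 0.22, after 14 in the first comparison with a median of 0.018. Glycolysis genes divided evenly, 8 higher and 8 lower, and in the first comparison 2 were higher and 14 lower, with a median of −0.43. Ldha, lactate dehydrogenase, was 1.30-fold and Gapdh 1.25-fold higher. Immediate-early genes were 7 higher and 15 lower, and apoptosis genes 4 higher and 11 lower, none of the latter by 2-fold. Beside these counts 48.5% of all genes were lower.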

How the data were processed

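The deposited files were UMI count matrices of 31053 genes by cell barcode, 1 matrix for each of the 2 groups. Per the submitters' processing notes, the authors obtained these counts by Cell Ranger 3.0.2 on the mm10 genome. Per the labels' protocols, the libraries covered 3′ ends of RNA caught in droplets. The annotation release is not given in the sources used here, and gene positions were taken from GENCODE for GRCm38 by gene ID. Such counts do not scale with transcript length.

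Barcodes were kept and sorted by the thresholds given above, with no cluster step. Members, gene lists and marker lists were chosen with earlier results of these data known. UMIs were summed over a set of barcodes and scaled to a common total (CPM). Ratios of CPM have exact conditional binomial intervals, sums have exact Poisson intervals and shares have exact Clopper-Pearson intervals, all at 95% and for counting error only. A gene entered a comparison with at least 20 UMIs over both sets, and 2-fold was the mark for higher or lower. Named in each list were the genes with the most UMIs and the largest ratios in the direction of the median, and outside the division lists the 12 genes at each end, ranked on whichever interval bound was nearer to 1, with at least 50 UMIs and a UMI in at least 20% of barcodes of the higher set, leaving out markers of other cell types. Some genes of these lists are not reported here. Single genes past 2-fold in a list, and Cd74, were named after their values were seen. On simulated counts the true ratio was inside the interval for 95.8% of 12291 genes (first comparison) and 96.0% of 10060 in the C1q-rich comparison. The simulation drew Poisson counts for summed UMIs, with no variation between barcodes. It therefore cannot show how the intervals hold where few barcodes carry most UMIs of a gene. Doublets were not called, and an alternative left out the 2% of barcodes with the highest Scrublet scores. Shares, gene counts, list medians and the highest and lowest genes were recomputed under up to 13 other settings, and in the first comparison under 2 more that were set after the data were seen. Other named genes were recomputed without the top barcode of each set and as a mean of CPM per barcode. Promoters came from RefSeq, GRCm38.p6, matched by symbol. Python 3.11.15, NumPy 2.4.6, SciPy 1.17.1, pandas 2.3.3, scanpy 1.11.5 and matplotlib 3.10.9 were used.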

Additional observations from a re-analysis of the deposited data

How the results depend on the processing

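No paired analysis was possible because each group had 1 library. The C1q-rich setting and the one without barcodes with 3 lymphoid markers were chosen after seeing the data. The PBS share was 0 in every setting that gives a share. The MSC-sEV share of 16.6% was 10.4% with at least 3 of the 5 genes, 22.3% with at least 10 C1q UMIs, 12% without barcodes with 2 markers of another immune class (45 members left), 9.98% after thinning and 20.6% in C1q-rich barcodes. The 646 genes at least 2-fold higher became 403 after thinning and 3108 with a minimum of 1 UMI. The 2564 genes at least 2-fold lower became 612 with at least 10 C1q UMIs, 904 after thinning, 1615 in barcodes with 2 microglia markers and 330 in C1q-rich barcodes. The division median of 2.76 was 1.41 without barcodes with 2 markers of another immune class and 1.84 after thinning. The monocyte median of −0.03 was −0.59 after thinning. Some markers of those classes were also seen in C1q-rich division-negative PBS barcodes, where plasmacytoid dendritic cell markers had a median of 214 CPM. The homeostatic median of 0.45 was −0.16 with at least 10 C1q UMIs and 0.97 without barcodes with 2 markers of another immune class. It was 0.053 after thinning, 0.16 within the depth of members and 0.12 with 2 microglia markers. In C1q-rich barcodes it was −0.24, and without 3 lymphoid markers 0.64. The transcription factor median turned to −0.35 and −0.99, and Cpe, Slc24a1 and Gngt1 turned to 0.14, 0.054 and 0.29. Spp1 in C1q-rich barcodes turned to −1.90 with at least 3 of the 5 genes. It was −3.22 without barcodes with 2 markers of another immune class and −2.69 after thinning. The cause was not tested. With 1 library per group and 120 members, genes with few UMIs are limited by counting error, and depth differed between members and their comparison barcodes in both comparisons.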
